A study of Mus musculus with 2 samples.

Results

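The receptors of the IL-1 family were followed in diabetogenic CD4 T cells from mice that had or had not received a tolerizing nanoparticle. They are Il1rl1, Il18r1, Il18rap, Il1r1, Il1r2, Il1rap, Il1rl2 and Sigirr, chosen by name. Each of the 8 had 1 row among the 54532 gene rows of the count table. The transgenic receptor of BDC-2.5 cells was taken from a CD4 clone of the non-obese diabetic mouse that reacts with islet beta cells. Recipients in both groups were NOD.scid mice, without lymphocytes of their own that rearrange antigen receptors, and the BDC-2.5 cells had been activated before transfer. In both, spleen and lymph node cells positive for CD4 and negative for a green fluorescent Foxp3 reporter were sorted on day 6 after transfer, from 4 pooled mice. The 2.5HIP-PLG group was injected intravenously with 1.75 mg of particles 1 day after transfer. These are nanoparticles that carry a hybrid insulin peptide seen by the BDC-2.5 receptor. The other group is labelled untreated and its mice are described as controls, and no vehicle or empty particle is named for it. The treatment text deposited with the untreated sample repeats the particle injection word for word, against that label. Each ratio below takes the treatment label as correct. The study was made to look for mechanisms of tolerance, and it gave 1 library per group from 1 experiment.

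Receptors of this family have immunoglobulin domains outside the cell and, in most members, a TIR domain inside it. A ligand binds a primary chain, an accessory chain joins, and the paired TIR domains recruit MyD88 and IRAK kinases, which leads to NF-kappaB and MAP kinase signalling. On CD4 T cells the IL-33 receptor ST2, encoded by Il1rl1, is known from Th2 cells and from regulatory T cells of tissues, the IL-18 receptor from Th1 cells, and the IL-1 receptor from Th17 cells. Il1r2 encodes a decoy without a TIR domain, and Sigirr an inhibitory member.

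Of these genes 6 stand in a row on the plus strand of chromosome 1, over 477.6 kb from 40074079 to 40551705 (GRCm38), in the order Il1r2, Il1r1, Il1rl2, Il1rl1, Il18r1 and Il18rap. Il1rap is on chromosome 16 (26581704 to 26730117) and Sigirr on the minus strand of chromosome 7 (141091175 to 141100572). Il1rl1 (40429570 to 40465415) ends 136 bases before Il18r1 (40465552 to 40500854) begins. The bases between the annotated ends of these neighbours are shown because the genes on either side differed widely in ratio. No annotated GENCODE exon overlaps them. They lie at chr1:40465416-40465551.
Il1rl1 to Il18r1: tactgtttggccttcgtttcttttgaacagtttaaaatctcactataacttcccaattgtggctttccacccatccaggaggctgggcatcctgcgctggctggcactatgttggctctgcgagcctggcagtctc

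Windows of 250 bases before annotated starts are shown next for Il1rl1, for its neighbour on the other side Il1rl2, and for Il18rap, the most abundant member of the row by counts. They come from RefSeq on GRCm38.p6, run 5′ to 3′ on the plus strand, and lie at chr1:40429320-40429569, chr1:40324339-40324588 and chr1:40515112-40515361. Capitals mark GATA hexamers, searched on both strands. They are AGATAA or AGATAG in one form and TGATAA or TGATAG in the other. GATA3 is a known activator of Il1rl1 in Th2 cells.
Il1rl1: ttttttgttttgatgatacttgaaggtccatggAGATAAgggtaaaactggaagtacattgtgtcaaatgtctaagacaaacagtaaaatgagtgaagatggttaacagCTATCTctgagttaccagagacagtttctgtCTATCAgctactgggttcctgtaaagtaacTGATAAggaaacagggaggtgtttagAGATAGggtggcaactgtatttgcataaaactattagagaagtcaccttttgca
Il1rl2: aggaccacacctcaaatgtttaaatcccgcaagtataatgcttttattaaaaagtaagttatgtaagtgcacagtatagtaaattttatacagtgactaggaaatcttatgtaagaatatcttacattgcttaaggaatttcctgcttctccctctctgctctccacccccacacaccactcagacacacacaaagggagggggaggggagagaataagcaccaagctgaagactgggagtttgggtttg
Il18rap: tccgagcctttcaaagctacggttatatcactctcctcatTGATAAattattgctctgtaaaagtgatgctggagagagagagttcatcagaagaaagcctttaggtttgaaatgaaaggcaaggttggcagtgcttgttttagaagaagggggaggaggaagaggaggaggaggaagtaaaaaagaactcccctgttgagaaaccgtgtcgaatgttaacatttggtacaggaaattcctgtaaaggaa

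The Il1rl1 window held 5 GATA hexamers, beginning 217, 141, 110, 80 and 54 bases before the start, and none overlaps another. Among all 32851 windows of that length, 26.5% held at least 1 such hexamer and 14 windows (0.0426%) held 5 or more. The Il18rap window held 1 and the Il1rl2 window 0. Of the 11 windows found for 7 of the members, 4 held a GATA hexamer, the other two being a second Il1rl1 window, at a start further into the gene, and the Il1r2 window. The Il1rl1 window printed above ends just before the GENCODE start of the gene. The RefSeq gene record begins further upstream, at 40404864, and no window before that start was used here. A T-box core (AGGTGT, either strand) was found once in the Il1rl1 window and once in the Il1rl2 window, 244 bases before its start. Among all windows 11.8% held it. The Il1rl1 window held no STAT motif (TTCNNNGAA, 7.02% of all windows), AP-1 motif (TGAGTCA or TGACTCA, 4.46%) or EGR motif (GCGGGGGCG or GCGTGGGCG, 3.06%), all searched on both strands. An Il18r1 window at a start further into that gene held 2 STAT motifs, and the Il1r2 window held 1. All these motifs were chosen after the counts were known, and matches describe letters only.

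Total deposited counts were 22580671 with 2.5HIP-PLG and 26036666 without. A single read equalled 0.0443 and 0.0384 CPM (counts per 1000000), so that a gene with 0 counts may have reached 0.133 and 0.115 CPM. With 1 library per group there is no replicate check and no p-value. Each ratio is 2.5HIP-PLG over untreated after scaling by column total, and its exact 95% interval reflects counting error alone. Higher or lower below means a ratio of 1.5 or more that way with 1 outside the interval. Among 13902 genes with a count sum of at least 20, 716 were higher (5.15%) and 1348 lower (9.7%), and the interval excluded 1 for 50.6%. CD4 T cell identity genes were abundant, Cd4 with 41743 and 39739 counts and Cd3e with 23549.82 and 20109.65. Of 12 such genes 0 were called, with a median log2 ratio of 0.34, and together their CPM was 1.20 times as high in the 2.5HIP-PLG library. Scaling by that sum moved the median of all measured genes from -0.01 to -0.27 and gave 406 higher and 2520 lower. In sorted bulk cells, fewer cells with a transcript and less transcript per cell cannot be told apart.

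All 8 members passed the count minimum. By the rule, 1 was higher, 2 were lower and 5 were neither, and their median log2 ratio was -0.32 beside -0.01 over all measured genes. The interval excluded 1 for each of them, above it for 3 and below it for 5, against 50.6% of all measured genes. Il1rl1 was the only one called higher. Over all measured genes 5.15% were higher and 9.7% lower. Call counts for so few genes say little about the family as a group, so the members are described singly.

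**Figure D1:**
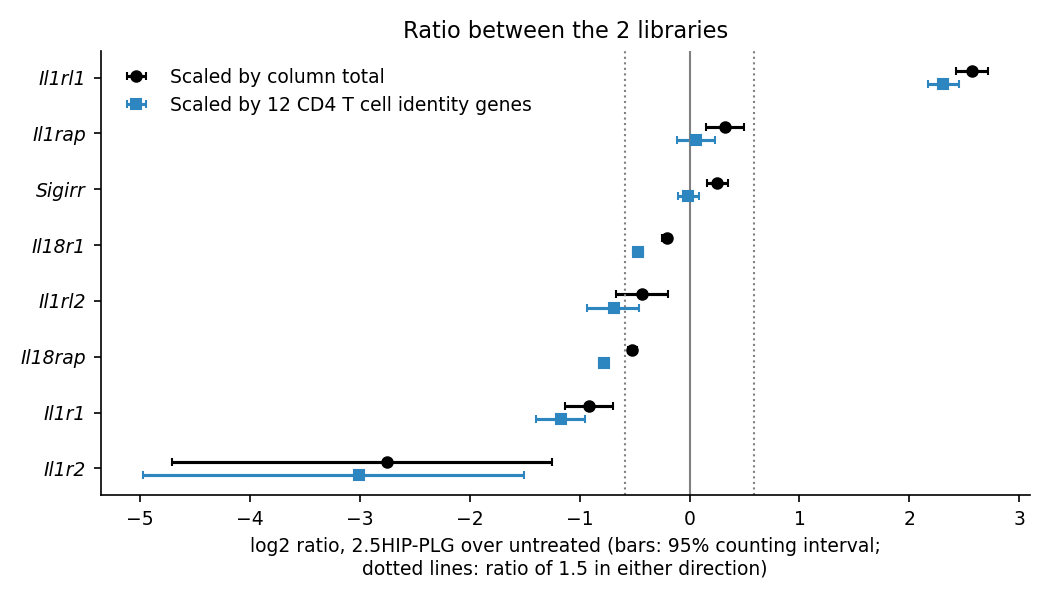
Log2 ratio of each receptor gene, 2.5HIP-PLG over untreated, on the horizontal axis, with 95% counting intervals, for scaling by column total (circles) and by 12 CD4 T cell identity genes (squares). Il1rl1 is the only member beyond the upper dotted line at a ratio of 1.5 under both scalings, and Sigirr lies at 1.19 by column total and at 0.992 by identity genes.

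Primary chains bind the ligand, and among them Il1rl1 had the widest difference. It had 2515 counts after 2.5HIP-PLG and 489 without, which is 111 and 18.8 CPM. The ratio was 5.93 (5.38 to 6.55), called higher, and it was 4.95 when scaled by T cell identity genes. By log2 ratio Il1rl1 was number 61 of the 13902 measured genes from the top. Its counts were whole in both libraries. The gene makes a membrane receptor and a shorter soluble form that lacks the TIR domain and captures IL-33. The annotation (GENCODE M21) lists 5 coding transcripts, of which the longest encode 567 amino acids and others 337. The deposited counts are per gene and do not separate these forms.

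Il18r1, which encodes the IL-18 binding chain, was far more abundant and differed little. It had 7226 counts after 2.5HIP-PLG and 9632 without, and 3.65% of measured genes had at least its count sum. The ratio was 0.865 (0.839 to 0.892), short of the rule, with the interval below 1. Il1r1, the signalling receptor for IL-1, was called lower. It had 249 and 540 counts, which is 1.88-fold lower (1.62 to 2.19). Il1rl2, which encodes the IL-36 receptor, had 244 and 379 counts and a ratio of 0.742 (0.629 to 0.874). It was neither by column total and lower, at 0.619, when scaled by identity genes.

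Accessory chains complete the signalling pair. Il18rap, the partner of Il18r1, had 7654 and 12651 counts, the largest count sum of the family. Its ratio of 0.698 (0.678 to 0.718) is 1.43-fold lower and just short of the rule, and scaling by identity genes (0.582) brought it past. Il1rap is shared by the receptors for IL-1, IL-33 and IL-36. It had 579 and 533.52 counts, the latter not whole, and a ratio of 1.25 (1.11 to 1.41). With identity genes as the scale that ratio was 1.04, and the interval then held 1 (0.926 to 1.18).

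The decoy and the inhibitory member went apart. Il1r2, which takes up IL-1 without signalling, was scarce, with 4 counts after 2.5HIP-PLG and 31 without. That is 6.72-fold lower (2.38 to 26.2), called lower on few reads, and an antisense gene that overlaps it, Gm16894, had 0 and 2 counts. Sigirr, which dampens IL-1 family and Toll-like receptor signalling, had 1807 and 1752 counts. Its ratio was 1.19 (1.11 to 1.27) by column total and 0.992 (0.928 to 1.06) by identity genes, so its direction rests on the scaling.

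**Figure D2:**
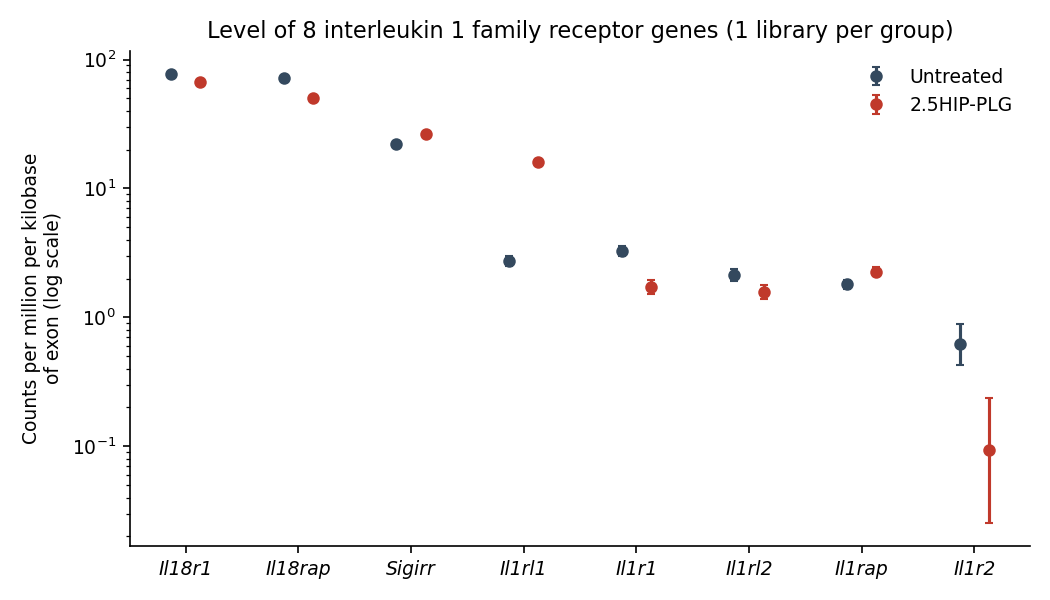
Level of each receptor gene in CPM per kilobase of exon (vertical log axis) in the 1 untreated and the 1 2.5HIP-PLG library, with exact Poisson 95% intervals as bars. Il18r1, Il18rap and Sigirr lie above 20 in both libraries. With all annotated exons as the length, Il1rl1 moves from 2.72 to 16.2, from number 5 to number 4 of the 8.

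Levels per kilobase, in CPM per kilobase of all annotated exons, set the genes on a common scale. Il18r1 was first in both libraries, at 66.4 after 2.5HIP-PLG and 76.8 without, followed by Il18rap at 50.2 and 72.0 and Sigirr at 26.3 and 22.1. Il1rl1 was number 4 after 2.5HIP-PLG, at 16.2 (15.5 to 16.8, exact Poisson). In the untreated library it was number 5 at 2.72 (2.49 to 2.98), under Il1r1 at 3.26 (2.99 to 3.55) and above Il1rl2 at 2.14 and Il1rap at 1.80. Il1r2 was last in both, at 0.0928 and 0.624. The order changed in both libraries when the longest transcript was used as the length. In the untreated library Il18rap (99.4) was then above Il18r1 (89.0). The low genes there were Il1rap at 4.53, Il1rl2 at 3.72, Il1r1 at 3.56 and Il1rl1 at 3.54. In the 2.5HIP-PLG library Il18r1 (77.0) stayed above Il18rap (69.3), and Il1rl2 (2.765) passed Il1r1 (1.895). Of the summed level of the 8 genes, Il1rl1 made up 9.81% after 2.5HIP-PLG and 1.502% without.

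Pairs within a library do not depend on scaling between libraries. Of Il1rl1 and Il18r1 counts together, Il1rl1 was 25.8% (exact binomial 95% interval 24.95 to 26.7) in the 2.5HIP-PLG library and 4.83% (4.42 to 5.27) in the untreated one. Per kilobase, Il18r1 was 4.11 times as high as Il1rl1 in the first and 28.2 times in the second. Il1rl1 against Il1r1 shifted further, from 47.5% (44.4 to 50.6) of their joint counts without treatment to 91.0% (89.9 to 92.0) with it. Against its own partner Il1rap, Il1rl1 went from 1.51 to 7.16 times the level per kilobase of all annotated exons. These multiples depend on the length used. With the longest transcript as the length, Il1rl1 was at 3.54 and Il1rap at 4.53 without treatment. After 2.5HIP-PLG they were at 21.0 and 5.67. The IL-18 receptor pair stayed closer together, with Il18rap at 51.4% (50.6 to 52.2) of their joint counts after 2.5HIP-PLG and 56.8% (56.1 to 57.4) without.

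**Figure D3:**
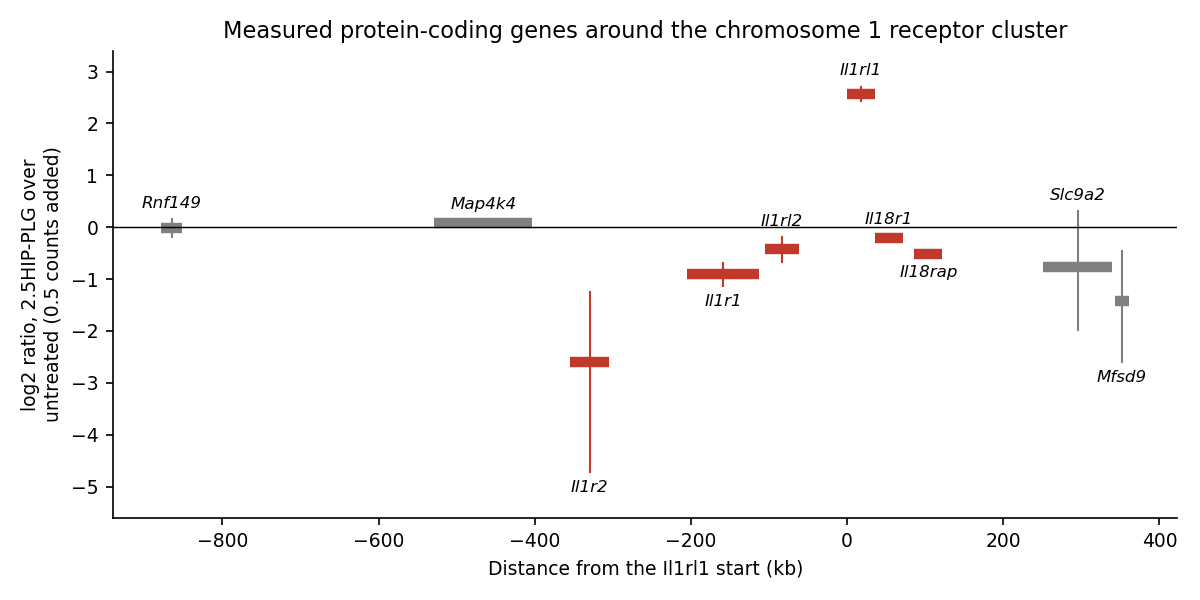
Log2 ratio (vertical axis, 2.5HIP-PLG over untreated) of measured protein-coding genes at their place along chromosome 1, as distance in kilobases from the Il1rl1 start; thick bars span each gene, thin lines are 95% counting intervals, and receptors are red. Il1rl1 stands at 2.57, between Il1rl2 at -0.43 and Il18r1 at -0.21.

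Along the chromosome 1 row, 5 of the 6 genes had ratios below 1 and Il1rl1 alone was above it. The step was 7.98-fold from Il1rl2 up to Il1rl1, over 62.0 kb between the genes, and 6.85-fold down again to Il18r1, over the 136 bases printed above. From Il18r1 to Il18rap the step was 1.24-fold. Within 500 kb on either side there were 4 other measured protein-coding genes. Map4k4, the nearest on the Il1r2 side, had 6875 and 7483 counts (1.06, 1.03 to 1.09), and Rnf149 had a ratio of 0.991 (0.880 to 1.12). On the Il18rap side Slc9a2 had 11 and 22 counts (0.577, 0.252 to 1.24) and Mfsd9 had 11 and 34.56 counts and was lower (2.72-fold, 1.37 to 6.02). None of these 4 genes was called higher, and Mfsd9 overlaps an antisense gene in the annotation.

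**Figure D4:**
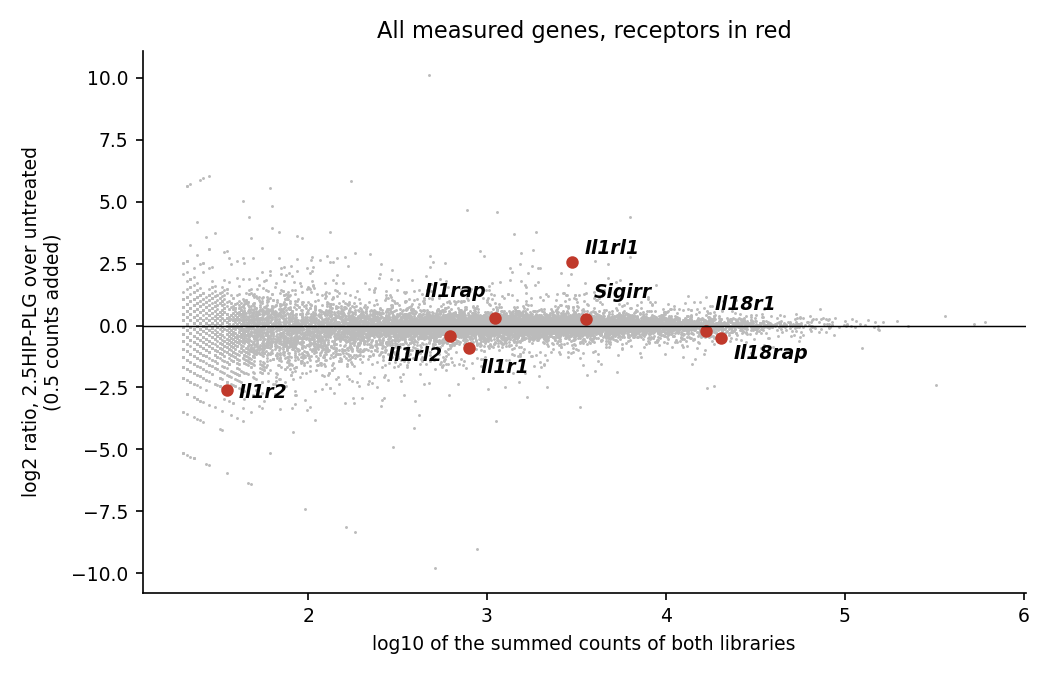
Log2 ratio (vertical axis) against the log10 of the summed counts for all 13902 measured genes (grey) with the 8 receptors in red. Il1rl1 lies above the grey body of genes at its count level, Il1r2 is at the sparse left edge, and the other 6 lie between -0.91 and 0.32.

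Because each gene has only 2 values, likeness to Il1rl1 means a like ratio at a like count. Within 2-fold of the summed counts of Il1rl1 there were 3954 protein-coding genes, Il1rl1 itself included. Of the others the nearest by log2 ratio was Rgs16, a regulator of G protein signalling. Rgs16 had 3363.71 and 644.3 counts and a ratio of 6.02 (5.53 to 6.56). Cd200, an inhibitory surface glycoprotein, had 2457 and 451 counts (6.28, 5.68 to 6.96). Crtam, an adhesion receptor of activated T cells, had 1262 and 260 counts (5.60, 4.89 to 6.42). Pdcd1, which encodes the inhibitory receptor PD-1, had 3928 and 812 counts (5.58, 5.17 to 6.02).

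The ligands were scarce in these sorted cells. Of 11 ligand and antagonist genes, 10 had a row and 2 were measured. Il18 had 48 and 22 counts and was higher (2.52, 1.49 to 4.38), while Il18bp, which encodes the soluble IL-18 binding protein, had 113 and 153 counts (0.852, 0.662 to 1.09). Il33, the ligand of ST2, had 1 and 6 counts, Il1a 8 and 4, and Il1b 2 and 1. Il1rn, Il1f6, Il1f8, Il1f9 and Il1f10 had 0 counts in both libraries.

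Genes of the shared signalling chain were counted by the same rule. Over all measured genes 5.15% were higher and 9.7% lower, beside which the list counts here and below are read. Of 28 genes from MyD88 to NF-kappaB and the MAP kinases, 26 were measured, 0 were higher, 1 was lower and 25 were neither. Their median log2 ratio was 0.11, against -0.01 over all measured genes. The lower one was Tnfaip3, the NF-kappaB feedback inhibitor A20, with 5107 and 11534 counts (1.96-fold, 1.90 to 2.02). Myd88 had 2553 and 2671.81 counts (1.10, 1.04 to 1.16) and Irak1 2685 and 3149 (0.983, 0.933 to 1.04). The next widest were Ikbkb, an IkappaB kinase (0.710, 0.679 to 0.743), Irak3, an inhibitory IRAK with 54 and 49 counts (1.27, 0.847 to 1.91), and Nfkbia, which encodes IkappaB alpha (0.791, 0.763 to 0.820). Another list of 18 genes with TIR domains held Toll-like receptors, adaptors, and Il1rapl1 and Il1rapl2, which had 0 counts in both libraries. Of these 18 genes 9 were measured and 1 was higher, Ticam2 with 35 and 17.95 counts (2.25, 1.24 to 4.21), with a median of 0.14. Tlr12 had 14 and 23 counts, Tlr7 had 29 and 24, and Tirap, a MyD88 adaptor, had 172.71 and 157.12, all neither.

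Genes linked to the expression of ST2 or of the IL-18 receptor were mixed. Of 8 genes linked to ST2 expression, 2 were higher and 0 lower (median log2 ratio -0.01). With identity genes as the scale 1 was higher and 2 were lower (median -0.27), and with a ratio of 2 as the limit 1 was higher. The higher ones were Irf4, with 3917 and 1335 counts (3.38, 3.18 to 3.60), and Batf, with 1988 and 1434 (1.60, 1.49 to 1.71), both transcription factors of activated T cells. Gata3 itself had 2564.98 and 4067 counts, a ratio of 0.727 (0.692 to 0.764), and Il2ra, the IL-2 receptor alpha chain, a ratio of 0.689 (0.631 to 0.753). Of 6 genes linked to the IL-18 receptor, 1 was higher, Eomes with 735 and 360 counts (2.35, 2.07 to 2.68), and the median was -0.03. Tbx21, the Th1 factor T-bet, had 6889 and 7893 counts, a ratio of 1.01 (0.974 to 1.04), while Runx3 (0.675, 0.649 to 0.701) and Stat4 (1.28, 1.23 to 1.33) fell short of the rule, and Il12rb1, a chain of the IL-12 receptor, had a ratio of 0.909 (0.853 to 0.968).

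Th17 genes, the setting in which Il1r1 is known on T cells, were lower along with it. Of 8 such genes 7 were lower and Stat3 was neither, and the median log2 ratio was -1.24. Rora, a nuclear receptor that takes part in Th17 differentiation, was 2.46-fold lower (2.28 to 2.66). Il17a had 6 and 49 counts, Il17f 4 and 26, and Il22 0 and 22.84. Whether these genes and Il1r1 belong to the same cells was not tested.

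Type 2 cytokine genes and Areg, whose products are released after IL-33 signalling, were at or near 0 counts. Il4 had 0 and 2 counts, Il5 had 1 and 0, Il9 had 0 in both, Il13 had 2 and 1 and Areg, the epidermal growth factor relative amphiregulin, had 1 and 2. Of 10 output cytokine genes 5 were measured, 1 higher and 1 lower (median log2 ratio -0.05). Il10 had 85 and 8 counts (12.3, 5.94 to 29.3) and Csf2, which encodes GM-CSF, had 27 and 59 (1.90-fold lower, 1.18 to 3.11). Ifng, the main product of IL-18 signalling in Th1 cells, had 1947.05 and 2330.88 counts (0.963, 0.906 to 1.02). Tnf had 936 and 948 counts (1.14, 1.04 to 1.25), and Il2 had 13.4 and 18.64 (0.829, 0.358 to 1.68).

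**Figure D5:**
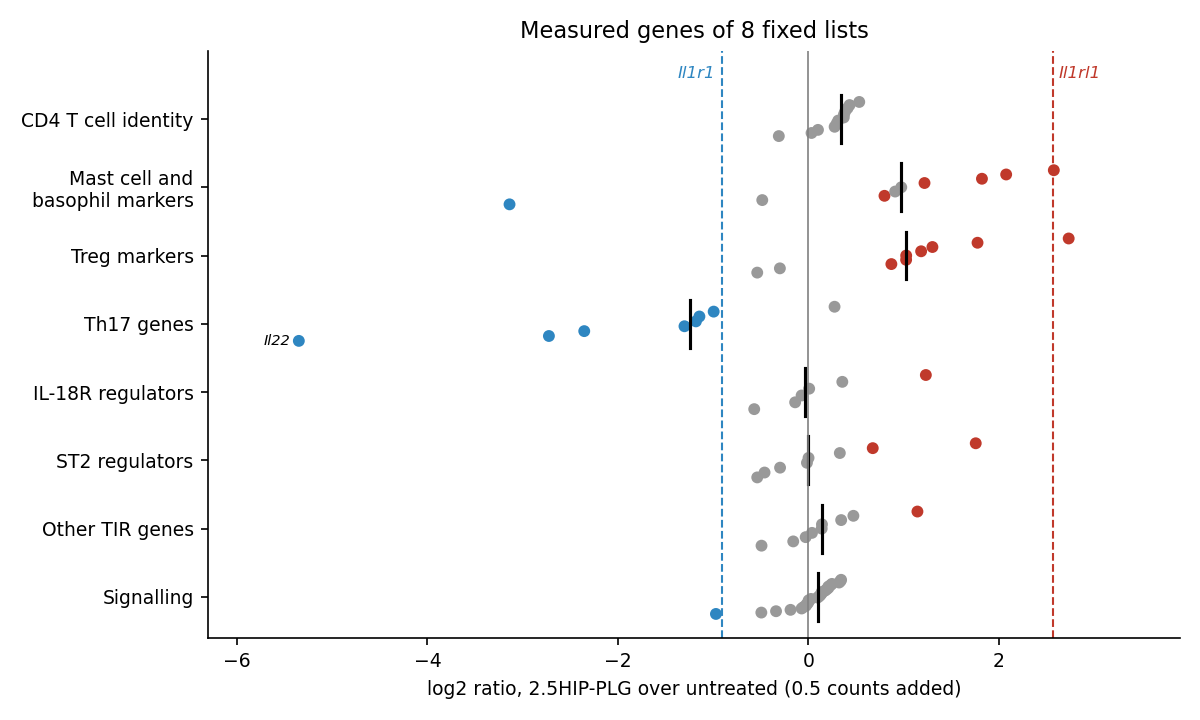
Log2 ratio (horizontal axis, 2.5HIP-PLG over untreated) of each measured gene in 8 fixed lists; red points were called higher, blue lower, grey neither, black bars are list medians, and dashed lines mark Il1rl1 at 2.57 and Il1r1 at -0.91. Regulatory T cell and mast cell and basophil markers lie mostly to the right and Th17 genes to the left; the place of Il22, with 0 counts in the 2.5HIP-PLG library, depends on the counts added.

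Markers of other cells known to carry ST2 were counted beside it. The shares over all measured genes were 5.15% higher and 9.7% lower. Of 10 regulatory T cell markers 9 were measured, 7 were higher and 0 lower. Their median log2 ratio was 1.03 and their summed level 557 CPM after 2.5HIP-PLG and 304 CPM without. Foxp3, the gene of the reporter used for exclusion, had 1156.83 and 389.06 counts (3.43, 3.05 to 3.86), not whole in either library, and the gene overlaps others. Per kilobase Il1rl1 stood at 1.44 times Foxp3 after 2.5HIP-PLG and at 0.834 times without. The 3 most abundant markers were Nrp1 (1.83, 1.75 to 1.91), Ctla4 (2.47, 2.30 to 2.65) and Tnfrsf4 (2.04, 1.88 to 2.22), all higher. The 2 measured markers called neither had ratios below 1, Il2ra at 0.689 (0.631 to 0.753) and Ccr8 at 0.812 (0.622 to 1.06). With identity genes as the scale 1 marker of this list was lower. Of 12 mast cell and basophil markers 9 were measured, 5 were higher and 1 lower. Their median was 0.98 and their summed level 34.99 and 25.8 CPM. The lower one was Cma1, with 3 and 35 counts (10.1-fold, 3.19 to 51.4). The basophil proteases Prss34, with 199 and 54 counts (4.25, 3.13 to 5.85), and Mcpt8, with 116 and 22 (6.08, 3.83 to 10.1), were higher. The others called higher had fewer counts. They were Cpa3 with 44 and 14, Hdc with 38 and 25, and Gata2, also a GATA factor, with 49 and 24 (2.35, 1.42 to 4.01). Kit, the mast cell growth factor receptor, had 292 and 471 counts (0.715, 0.616 to 0.829), which is 12.9 and 18.1 of the summed CPM. Fcer1a, the IgE receptor alpha chain, had 10 and 0 counts. The part of either cell type in the Il1rl1 difference was not tested.

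Of the markers of type 2 innate lymphoid cells, another ST2-bearing type, some were at or near 0 counts and others were not. Beside Il5, Il13 and Areg, Calca had 1 and 0 counts and Nmur1 2 and 4. Ptgdr2, a prostaglandin D2 receptor also known from Th2 cells and basophils, had 9.24 and 76.8 counts and was lower (7.21-fold, 3.71 to 16.8). Il17rb, a chain of the IL-25 receptor, had 16 and 32 counts (0.577, 0.295 to 1.08). Of 10 genes in that list 4 were measured, 3 of them lower, with a median of -1.34 and a summed 63.8 and 161 CPM, nearly all from Rora and Klrg1, which T cells also express.

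The remaining marker lists were mixed, and the shares over all measured genes were again 5.15% higher and 9.7% lower. Neutrophil markers, of interest because neutrophils carry Il1r2, summed to 14.3 and 3.92 CPM, with 2 of 3 measured genes higher. These were Mpo, with 236.94 and 57 counts and most of that sum, and Elane, with 31 and 9. Under the count minimum were, among others, S100a8 with 10 and 8 counts, S100a9 with 10 and 9, Cxcr2 with 4 and 2 and Csf3r with 9 and 1. Macrophage markers had 3 of 7 measured higher (median 0.50) and dendritic cell markers 1 of 7 lower (-0.53), or all 7 lower with identity genes as the scale (-0.79). Markers of NK cells, which can carry the IL-18 receptor, had 4 of 8 higher and 3 lower (0.43). At a count sum of at least 100 this list had 2 higher and 2 lower, and its median changed sign to -0.34. The sum of the NK cell markers, 170.1 and 647 CPM, was mostly Gzma, which T cells also express. B cell markers had 2 of 4 higher (0.64), with Ms4a1 at 0 in both. Gamma delta T cell markers had 1 of 4 lower (-0.29) and stromal markers 2 of 4 higher (0.89), with Col3a1 and Pdgfra at 0 in both. The part of these cells in the receptor differences was not tested.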

How the data were processed

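Per the labels' protocols, RNA came from the RNeasy Plus Mini Kit and libraries from NuGen's Universal Plus mRNA kit. The submitters' processing notes name STAR (no version) for alignment, RSEM 1.3.1 for quantification and GRCm38 as the build. Annotation, filters and strand setting were not given in the sources used here, so overlapping genes on either strand may share reads. What the authors deposited is a table of expected counts by gene, without scaling between libraries. They were scaled by column total and, for intervals and calls, rounded to whole numbers.

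Ratios have exact conditional binomial (Clopper-Pearson) 95% intervals. Log2 ratios had 0.5 counts added. Without molecular identifiers, intervals and floors (3 counts) cover counting error only. The calculation was tested on simulated Poisson counts drawn from the pooled shares of these 2 libraries. Such counts hold counting error only, so the test says nothing about variation between animals or libraries. Python 3.11.15, numpy 2.4.6, pandas 2.3.3, scipy 1.17.1 and matplotlib 3.10.9 were used, with edgeR 4.0.16 (TMM) and DESeq2 1.42.0 in R 4.3.3 for other scalings. Coordinates and lengths came from GENCODE M21 (GRCm38), where 54409 row IDs were found.

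The receptors, 7 pathway lists and 11 marker lists were chosen with earlier results of these data known. Named genes were all receptors, of each pathway list up to 4 measured genes with the widest log2 ratio, up to 3 of the most abundant genes of each marker list, measured coding genes within 500 kb of the chromosome 1 row, and the 4 genes nearest to Il1rl1; others (among them Myd88, Irak1, Ifng, Tbx21 and genes at or near 0 counts) were chosen after their values were seen. Other scalings, count minimums, a fold of 2, a 99% interval, unrounded counts, 2 counts added and another exon length were tried.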

Additional observations from a re-analysis of the deposited data

How the results depend on the processing

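No paired analysis was possible because each group has 1 library. Under TMM, DESeq2 median-of-ratios, upper quartile, total without the 20 most abundant genes, unrounded counts and a 99% interval, each receptor's ratio stayed within its main 95% interval and its call was the same. Scaling by the summed CD4 T cell identity genes was chosen after seeing the data. It gave ratios of 4.95 for Il1rl1, 0.444 for Il1r1, 0.722 for Il18r1, 0.619 for Il1rl2 (now lower), 1.04 for Il1rap, 0.582 for Il18rap (now lower) and 0.992 for Sigirr, with 406 measured genes higher and 2520 lower, since that sum was itself higher after 2.5HIP-PLG. A count sum of at least 100 gave 473 higher and 748 lower because fewer genes were tested, and a ratio of at least 2 gave 387 and 808. In the Th17 list 4 genes were lower at a count sum of at least 100, and the signalling list had 3 lower with identity genes as the scale and 0 with a ratio of 2. With identity genes as the scale the ST2 regulators had 1 higher and 2 lower, the IL-18 receptor regulators 1 lower, and the dendritic cell markers 7 lower against 1. Depth limits Il1r2, whose 4 and 31 counts leave a wide interval, and the ligand and type 2 cytokine genes, most of which were under the count minimum.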
